A study of Mus musculus with 4 samples.

Results

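The genes examined were 10 genes of the major histocompatibility complex (MHC) class I pathway, chosen by name out of the 31053 genes in the count matrices: H2-K1, H2-D1, H2-T23, B2m, Tap1, Tap2, Tapbp, Psmb8, Psmb9 and Nlrc5. Their transcripts were counted in single haematopoietic stem cells of mouse bone marrow, with the 10x Chromium 3′ v3 method, which counts each captured RNA molecule once through a unique molecular identifier (UMI). Long-term stem cells (LT-HSC; negative for lineage markers, positive for Kit, Sca1 and CD150, negative for CD48) and short-term stem cells (ST-HSC; the same gate but negative for CD150) were sorted from the same 2 male mice aged 14 weeks. This gave 2 libraries per gate and 4 in all, named here by gate and mouse as LT-m1, LT-m2, ST-m1 and ST-m2. Every animal was of the Tie2-bG-Micm x RosaYFP cross, in which a Tie2-driven inducible Cre meets a YFP reporter at Rosa26. The labels do not say whether Cre was induced, and they give no H2 haplotype for the cross.

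MHC class I molecules show peptides from inside the cell to CD8 T cells and are ligands for inhibitory receptors of natural killer cells. Peptides cut by the proteasome are carried into the endoplasmic reticulum by the TAP transporter, and tapasin bridges TAP to the empty heavy chain, which is stable at the surface once it holds beta-2 microglobulin and a peptide. Interferons raise the transcription of most of these genes, the immunoproteasome subunits included, and the transactivator Nlrc5 acts on class I promoters through a module of X and Y boxes. Nearly all nucleated cells carry class I molecules, blood stem cells included.

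The promoters of 8 of the 10 genes were read from RefSeq windows of 300 bases on the GRCm38.p6 build, from 250 bases before to 50 after each start site; Tap2 and Nlrc5 had no window. The stretches of the promoters of H2-K1, H2-D1 and B2m that hold matches to the class I elements are printed 5′ to 3′ because these are the most abundant members and because their matches share one order. Capitals mark, from left to right in the H2-K1 and H2-D1 stretches, a kappaB-type match (GGGNNTTCC), an interferon regulatory factor match (GAANNGAAA, here on the other strand), an X2/CRE-type match (TGACG) and a Y box (CCAAT, here on the other strand). In B2m they mark an X2/CRE-type match and a Y box.
H2-K1, chr17:34000351-34000466, minus strand: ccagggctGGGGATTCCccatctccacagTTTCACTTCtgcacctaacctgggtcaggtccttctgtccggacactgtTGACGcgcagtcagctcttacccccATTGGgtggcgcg
H2-D1, chr17:35262915-35263030, plus strand: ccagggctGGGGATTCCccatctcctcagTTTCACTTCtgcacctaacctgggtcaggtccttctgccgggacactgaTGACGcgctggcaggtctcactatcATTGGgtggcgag
B2m, chr2:122147601-122147646, plus strand: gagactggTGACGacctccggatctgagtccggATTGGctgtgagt
The H2-K1 and H2-D1 stretches were identical at 104 of 116 bases (89.7%), and their matches had the same spacing, with 21, 49 and 25 bases from one match start to the next. The H2-D1 stretch is placed by its RefSeq start site and lies inside the span that GENCODE gives the gene.

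Each motif was searched on both strands, and none of the marked matches overlapped another. The interferon regulatory factor motif as searched (GAANNGAAA) was present in 2 of the 8 members with a window, H2-K1 and H2-D1. It was in 7.52% of all 32817 mouse windows of this length. The kappaB-type motif as searched (GGGNNTTCC) was in the same 2 members and in 5.82% of windows. Variants of these strings were not searched. The B2m window holds gaaactgaaa and gggaaagtccc, and the H2-T23 window holds tttctctttc, which these strings do not match. These counts therefore do not show that the other members lack such elements. The Y box motif was in 7 of the 8 members, all but Psmb8, and in 37.4% of windows, while the X2/CRE-type motif was in 5 (H2-K1, H2-D1, B2m, Tap1 and Psmb9) and in 20.8% of windows. Tap1 and Psmb9 are transcribed in opposite directions from a shared start region, so 275 of the 300 bases of their windows were the same stretch (chr17:34187306-34187580) and their matches are not independent. These matches are descriptions of letters and not of factor binding.

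By the GENCODE vM21 annotation of the same assembly, 8 of the 10 genes lie on chromosome 17: Tapbp (chr17:33915899-33929292), H2-K1 (chr17:33996017-34000347), Psmb9 (chr17:34181987-34187764), Tap1 (chr17:34187553-34197225), Psmb8 (chr17:34197721-34201454), Tap2 (chr17:34203527-34216321), H2-D1 (chr17:35262730-35267499) and H2-T23 (chr17:36029773-36032855). B2m lies at chr2:122147686-122153083 and Nlrc5 at chr8:94434356-94527272, and all 10 are protein coding. Of the 50-base windows in the last 500 bases of the heavy chain transcripts, 38.1% in H2-T23, 9.60% in H2-K1 and 8.92% in H2-D1 also occurred in another gene. For H2-K1 the genes found included the class I genes H2-D1, H2-Q1, H2-T23, H2-Q6 and H2-Q7. For H2-D1 they included H2-K1 but also Adsl, Kcnk4, Prr11 and Nmrk1, and for H2-T23 they included the pseudogene H2-T-ps but also Rab33b, Hook2, Vamp3 and Pck2, which are not class I genes. Smaller shares, 4.83% in Tapbp and 2.75% in Tap1, fell in transcripts of Zbtb22 and Tap2. The other 5 members shared none, so counts of the 3 heavy chain genes are the most uncertain ones.

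A barcode was kept as a cell if it had 1000 genes or more, 2000 UMIs or more and no more than 10% of UMIs from mitochondrially encoded genes. This left 22 cells and 115305 UMIs in LT-m1, 1217 cells and 13249904 UMIs in LT-m2, 2633 cells and 27870823 UMIs in ST-m1, and 1707 cells and 13566531 UMIs in ST-m2. The first library stood apart, with 39553 barcodes of a median of 285 UMIs, and is therefore also given with all its barcodes summed. Its members rest on 5 to 205 UMIs, and the floor of 3 counts lies at 26.0 counts per 1000000 UMIs (CPM) there, against 0.108 to 0.226 CPM in the other 3 libraries. At most 1 kept barcode was shared by any pair of libraries. Slamf1 (CD150), the gene that separates the gates, had 34.7 (4 UMIs) and 21.9 CPM in LT-HSC against 0.825 and 1.40 CPM in ST-HSC. Cd48, for which both gates were sorted negative, had 0 and 2.19 CPM in LT-HSC against 12.95 and 17.99 CPM in ST-HSC, and was called lower in LT-HSC between the gates (log2 fold change −2.82, SE 0.34, edgeR adjusted p = 2.35e-13).

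The heavy chains H2-K1 and H2-D1 and their light chain B2m were the most abundant members in every library. UMIs of 3′ ends count molecules whatever the transcript length, so CPM values of different genes are set side by side without dividing by length; capture efficiency per gene was not measured. H2-K1, a classical heavy chain, had 1778 and 2222 CPM in LT-HSC of both mice, against 1948 and 2257 CPM in ST-HSC. B2m had 1613 and 1943 CPM in LT-HSC, against 2014 and 1844 CPM in ST-HSC. H2-D1, the other classical heavy chain, had 1093 and 1528 CPM in LT-HSC, against 1269 and 1476 CPM in ST-HSC. The gates overlapped for all 3 genes, and the lowest value of each was in the library of 22 cells. H2-K1 and B2m changed places between libraries and do not differ beyond their spread, whereas H2-D1 lay below both in all 4. Among the non-classical and loading genes the order was Psmb8, then H2-T23, then Psmb9 in the 3 deep libraries.

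The immunoproteasome subunit Psmb8 had 321 and 428 CPM in LT-HSC, against 409 and 492 CPM in ST-HSC. H2-T23, the gene of Qa-1, a ligand of the receptor NKG2A, had 286 and 355 CPM in LT-HSC, against 293 and 326 CPM in ST-HSC. Psmb9, the other immunoproteasome subunit of the set, had 78.1 and 225 CPM in LT-HSC, against 254 and 267 CPM in ST-HSC. Psmb9 was therefore the one member among these 3 with both LT-HSC libraries below both ST-HSC libraries, and its lowest value rests on 9 UMIs (95% exact Poisson interval 35.7 to 148 CPM, counting error only).

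The transporter subunits and tapasin formed a lower tier. Tap2 had 147 and 97.1 CPM in LT-HSC, against 119 and 131 CPM in ST-HSC. Tap1 had 43.4 and 87.3 CPM in LT-HSC, against 92.4 and 83.2 CPM in ST-HSC. Tapbp, which encodes tapasin, had 43.4 and 91.5 CPM in LT-HSC, against 87.7 and 101.4 CPM in ST-HSC. The gates overlapped for all 3 genes. Tap2 led in every library, while Tap1 and Tapbp changed places. Nlrc5, the transactivator, had 69.4 and 23.9 CPM in LT-HSC, against 26.3 and 20.9 CPM in ST-HSC. It was the lowest member in the 3 deep libraries but lay above Tap1 and Tapbp in LT-m1, where its value comes from 8 UMIs (interval 30.0 to 137 CPM). With all barcodes of that library Nlrc5 lay at 23.3 CPM, within the range of the other libraries, and Psmb9 at 223 CPM.

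**Figure D1:**
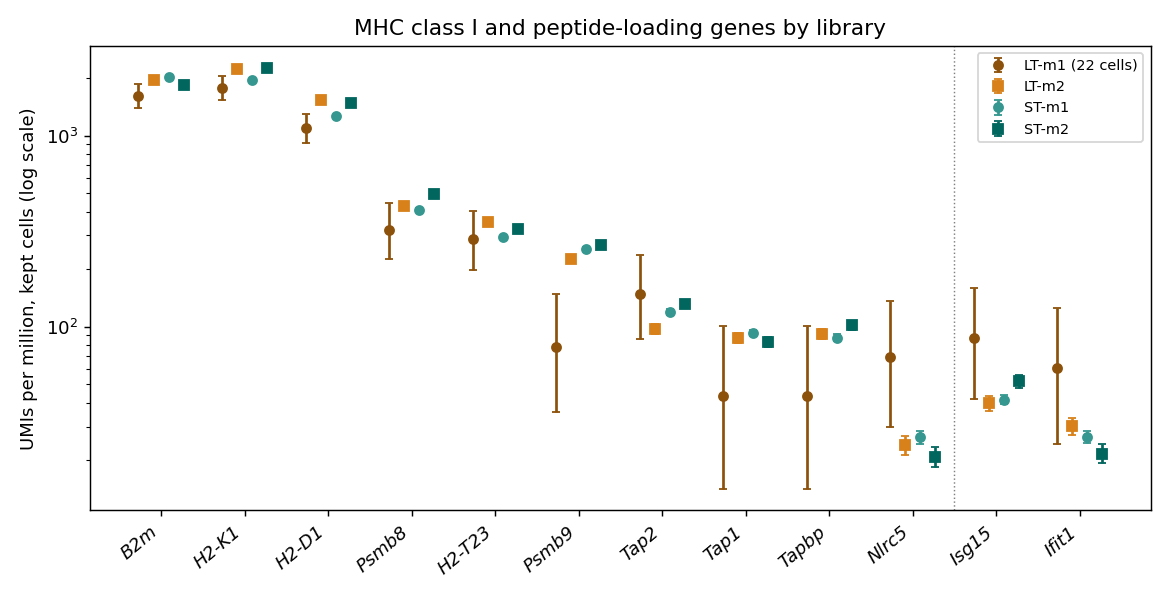
Level of each of the 10 genes, and of Isg15 and Ifit1 to the right of the dotted line, in CPM on a log axis; each point is 1 library (LT-HSC, then ST-HSC) and bars are 95% exact Poisson intervals. H2-K1, B2m and H2-D1 lie above 1000 CPM in all 4 libraries, and the wide bars belong to LT-m1 with 22 kept cells.

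Whether the gates differ was tested on counts summed per library, with edgeR's quasi-likelihood test and Benjamini-Hochberg adjustment over 12656 genes. None of the 10 members passed an adjusted p of 0.05, in a comparison where 6.72% of all genes did (851). DESeq2 called none of the 10 either and gave none an unadjusted p under 0.05, where edgeR gave 1. That member was Psmb9, at 152 ± 111 CPM in LT-HSC against 265 ± 14.1 CPM in ST-HSC (SD, n = 2 each, TMM-scaled; log2 fold change −0.44, SE 0.20, edgeR adjusted p = 0.231). With the mouse as a block, which pairs the gates, its log2 fold change was −0.555 (SE 0.20, edgeR adjusted p = 0.0647). The change was −0.21 without LT-m1 and −1.85 without LT-m2. With all barcodes of LT-m1 it was −0.10, with or without the block. The log2 fold changes of the 10 ran from −0.44 to 0.13 with a median of −0.12, against −0.02 over all genes. For all but Psmb9 and Tap2 (−0.29, SE 0.19) the SE was about the size of the change or larger. With all barcodes of LT-m1, 8.87% of 12892 genes were called, again no member, and the median moved to 0.09, against 0.01 over all genes. The interval allowed by these libraries is wide: H2-K1 was −0.10 with an SE of 0.19, so a p above the threshold does not show that the gates carry equal levels.

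Relatives and partners of the 10 genes were read from the same test between the gates, in which 6.72% of all genes were called. The counts below stand beside that share, and no list was tested against it. Of 12 other class I and class I-like genes tested, H2-T3, the thymus leukaemia antigen, was called, at 5.32 ± 7.53 CPM in LT-HSC against 4.69 ± 1.01 CPM in ST-HSC (log2 fold change 1.16, SE 0.32, edgeR adjusted p = 0.00637). It had 0 UMIs in the 22 cells of LT-m1, and H2-T22, H2-Q4, H2-Q6 and H2-Q7 did not pass. No gene passed among 21 other loading and peptide-supply genes, 3 constitutive proteasome subunits or 27 regulators of class I transcription. Of 5 class I receptor and NK ligand genes tested, 1 was higher and 1 lower in LT-HSC. Clec2d, a ligand of inhibitory NK receptors, had a log2 fold change of 0.76 (SE 0.20, edgeR adjusted p = 0.00303), and Pirb, an inhibitory receptor for class I, one of −1.99 (SE 0.51, edgeR adjusted p = 0.00303). Of 25 core interferon genes none passed, Ifit1 and Isg15 included. Of 36 other interferon-responsive genes 5 were higher (Iigp1, Gbp4, Gbp7, Tgtp2, Slfn2) and 3 lower (Cxcl10, Ifi27, Ifi27l2a) in LT-HSC. With all barcodes of LT-m1, where 8.87% of all genes were called, 6 of these 36 were higher (Gbp9, Gbp4, Gbp6, Tgtp2, Slfn2, Iigp1) and 1 lower (Ifi27l2a). Gbp7 had 251.5 CPM (29 UMIs) in kept cells of LT-m1 but 57.5 CPM with all its barcodes. It had 91.9 CPM in LT-m2, against 77.9 and 66.0 CPM in ST-HSC. In that setting 1 core interferon gene (Ddx58) and 2 regulators (Irf8, Ifngr2) were called lower, and H2-T3, Clec2d and Pirb stayed called.

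Across the cells of a library, the heavy chains and B2m were present in nearly every cell, and varied beyond counting noise. To compare cells at one depth, each cell with 4000 UMIs or more was thinned to 4000, which kept 1168 cells of LT-m2, 2603 of ST-m1 and 1678 of ST-m2; LT-m1 had 12 and was left out. A thinned cell held on average 9.22, 8.01 and 9.37 UMIs of H2-K1 in these libraries, 6.36, 5.32 and 6.08 of H2-D1 and 7.93, 8.34 and 7.52 of B2m. At least 1 UMI of each was found in 99% or more of cells. The variance over the mean, which is 1 for counting noise alone, was 1.70, 1.51 and 1.62 for H2-K1, 1.45, 1.36 and 1.36 for H2-D1 and 1.33, 1.41 and 1.29 for B2m, against a median of 1.02 over all genes. In the lower tier the ratio lay close to 1: Tap1 had 1.07, 1.11 and 0.989, and Nlrc5 had 1.04, 1.04 and 1.02. Their thinned means were only 0.361, 0.365 and 0.313 for Tap1 and 0.0933, 0.114 and 0.0840 for Nlrc5. At a given relative spread between cells, this ratio falls towards 1 as the mean falls. It therefore does not rank members by relative spread, nor set the abundant ones against the median over all genes.

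The interferon genes were distributed in another way, with a UMI in few cells and a tail of cells at higher counts. Ifit1, an inhibitor of viral RNA translation, had a UMI in 8.99%, 7.22% and 6.56% of thinned cells, with a variance over mean of 3.45, 3.63 and 2.06. Isg15, a ubiquitin-like modifier, had a UMI in 10.9%, 11.99% and 14.0% of cells, with 2.27, 2.13 and 2.03. Of the cells with a UMI of Ifit1 or Isg15, 140 of 203, 326 of 436 and 208 of 300 held exactly 1, while the highest thinned counts were 14, 19 and 6 for Ifit1 and 9, 11 and 8 for Isg15. Nlrc5 was found in a similar share of cells, 8.82%, 10.5% and 7.99%, but without excess variance. Without thinning, Nlrc5 was found in 22.4%, 22.7% and 14.5% of cells. No cells known to lack class I genes were set apart here, so a background share from free RNA was not estimated.

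Within a library, cells rich in one heavy chain tended to be rich in the others. Pearson r of log2(1 + thinned count) between H2-K1 and H2-D1 was 0.316 over 1168 cells of LT-m2, 0.166 over 2603 cells of ST-m1 and 0.226 over 1678 cells of ST-m2. Between H2-K1 and B2m it was 0.267, 0.176 and 0.241. The 6 pairs among H2-K1, H2-D1, B2m and H2-T23 had a mean r over libraries from 0.111 to 0.236, while the other 39 member pairs ran from −0.01 to 0.0831. These values are descriptions: cells of a library share its depth and capture, the thinned counts of the lower tier are near 0 or 1, and some 3′ sequence of H2-K1 is shared with H2-D1 and H2-T23, and none of B2m. For scale, 99% of 27317136 pairs of 7392 genes had an r under 0.0750, 0.0506 and 0.0622 in these libraries, and 8, 13 and 7 of the 45 member pairs exceeded it.

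**Figure D2:**
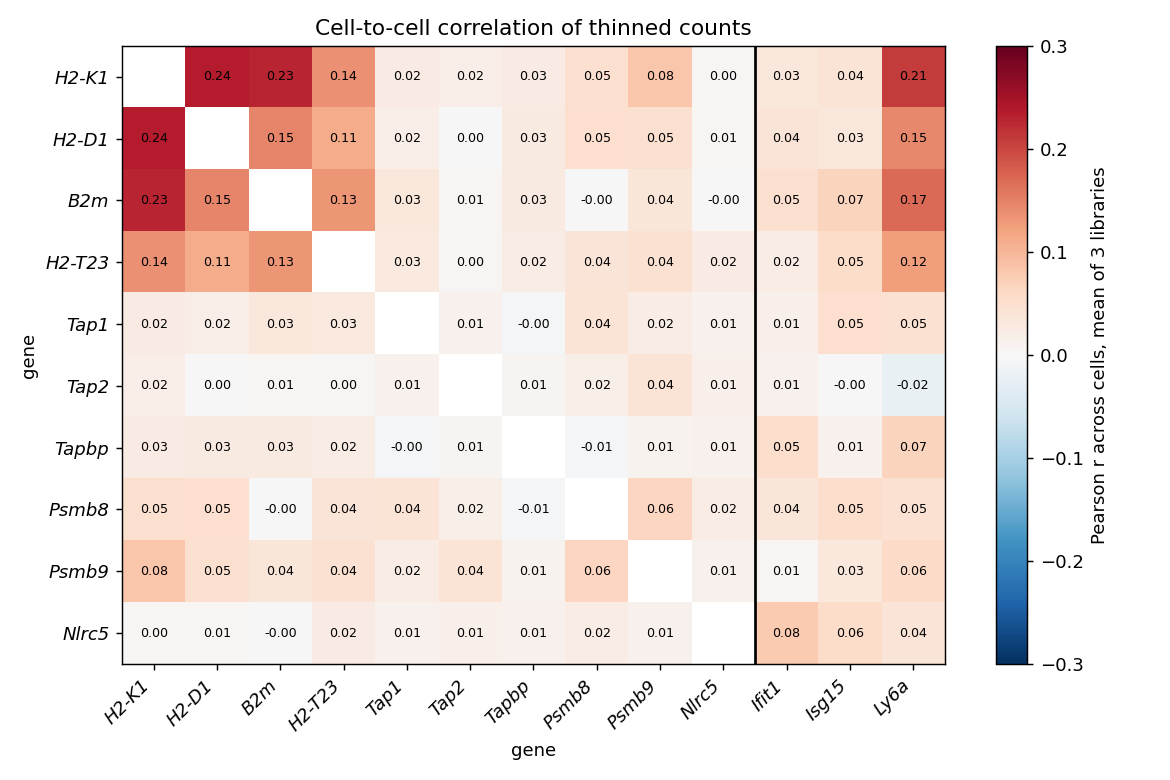
Pearson r across cells of thinned counts, mean of 3 libraries, for the 10 genes (left of the black line) and for 3 interferon-responsive genes (right). The upper left block of H2-K1, H2-D1, B2m and H2-T23 holds the 6 strongest member pairs, 0.111 to 0.236, and Ly6a is the one gene at the right whose r with H2-K1 reaches that range.

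The summed members followed the summed interferon genes more closely than they followed Ifit1 or Isg15 alone. The r of the 10-gene sum was 0.193, 0.164 and 0.193 with the sum of 26 core interferon genes, 0.060, 0.103 and 0.051 with Ifit1 and 0.0837, 0.0954 and 0.0963 with Isg15. With the stem cell gate gene Slamf1 it was 0.0421, −0.0201 and −0.0305, and with the progenitor gene Flt3 it was −0.0133, 0.0123 and 0.0434. Slamf1 had only 23 UMIs in the kept cells of ST-m1 and 19 in those of ST-m2 before thinning, so its r there rests on few cells. Ifit1 and Isg15 themselves had 0.326, 0.344 and 0.371 with each other. The class I sum was thus less tied to Ifit1 or Isg15 than these genes were to each other, and it rose in steps with the interferon content of the cell.

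Cells with no UMI of the core interferon genes had 66.2, 63.9 and 66.5 UMIs of the 10 members per 10000 UMIs in LT-m2, ST-m1 and ST-m2. Cells with 10 or more had 83.5, 77.7 and 81.4. Intermediate bins lay between these ends in all 3 libraries, with 1 step down, in ST-m2 from 73.2 at 2 UMIs to 70.7 at 3. Against the G2 and M phase genes the sum was lowest in cells with 13 to 19 such UMIs, at 57.0, 61.3 and 64.2, bins of 33, 85 and 43 cells. It was higher again, at 64.0, 67.6 and 72.7, in cells with 20 or more.

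**Figure D3:**
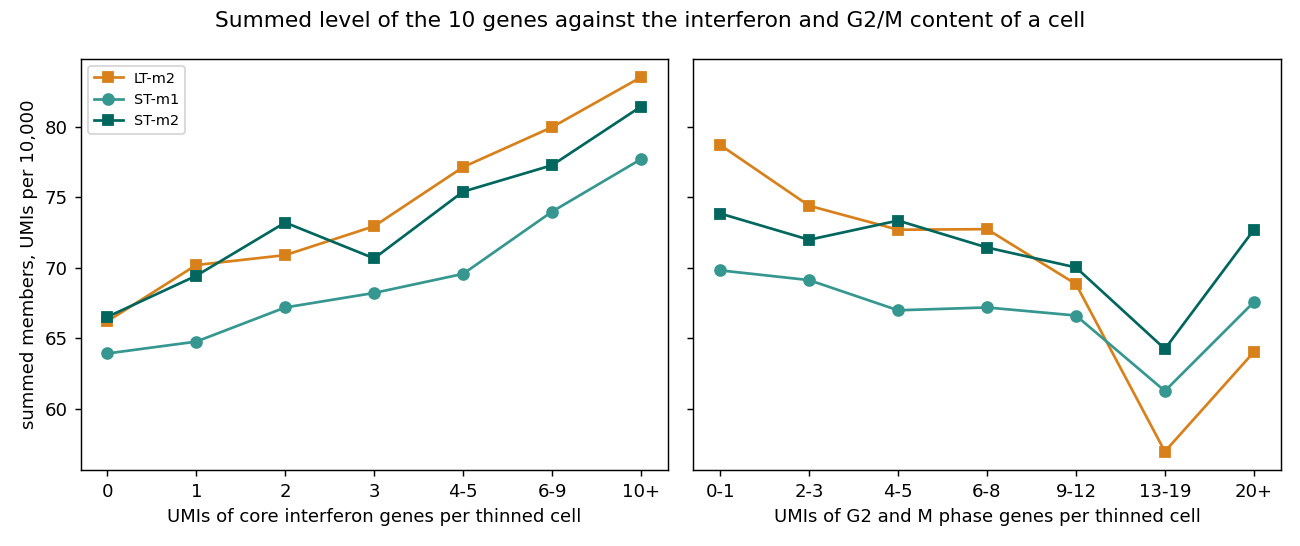
Mean summed level of the 10 genes per 10000 UMIs in thinned cells (y axis), in bins of the cell's UMIs of core interferon genes (left) and of G2 and M phase genes (right); each line is 1 library. At the left, all 3 lines end more than 10 units above their first point. At the right, they dip at 13 to 19 UMIs. Most UMIs of the sum come from H2-K1, B2m and H2-D1.

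Of 7382 genes compared, the one whose cell-to-cell pattern was most like that of the 10-gene sum was Ly6a, the gene of the gate marker Sca1, with a mean r of 0.272 over 3 libraries. As most of this sum is H2-K1, B2m and H2-D1, the ranking describes mainly these genes and little of the lower tier. H2-Q7 (0.231), a Qa-2 heavy chain, Ifitm1 (0.226), Ltb (0.219), Ifitm3 (0.216), Cd74 (0.211), the class II invariant chain, and H2-Q4 (0.200) followed. H2-Q7 shares some 3′ sequence with H2-K1, and the part of this in its r was not tested. Itm2b (0.188), Lmo2 (0.184) and Rps27 (0.181) completed the first 10. The least like were Cdca7 (−0.157), Ran (−0.156), Set (−0.154), Mif (−0.154) and Ranbp1 (−0.148). Ranks moved with the depth of thinning: at 2000 UMIs Ly6a stayed first and Rps27 was 17.

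To ask which members are higher in cells with many interferon transcripts, cells were called interferon-gene-rich when their thinned UMIs of the 26 core interferon genes, which include none of the 10, reached 9. This is a range of a score and not a cell type: 15, 29 and 22 cells lay 1 UMI under the limit and 9, 25 and 12 at it. The class held 54 of 1168 cells in LT-m2 (4.62%), 104 of 2603 in ST-m1 (3.995%) and 77 of 1678 in ST-m2 (4.59%). Unthinned counts were summed per class and library and compared with the other cells of the same library (edgeR quasi-likelihood test, library as a block, n = 3 libraries from 2 mice). LT-m2 and ST-m2 came from the same mouse, which the fit did not model. Of 11847 genes 3.09% were called, 1.43% higher and 1.66% lower, with the score genes left out. Of the 10 members 9 were higher, none was lower, and Tap2 did not pass. Their median log2 fold change was 0.29, against −0.01 over all genes. Whether the change differs between LT-HSC and ST-HSC was not tested, with 1 LT-HSC library.

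Tap1 and Nlrc5 changed most. Tap1, the first transporter subunit, had 147 CPM in interferon-gene-rich cells against 85.0 CPM in other cells of LT-m2, 179 against 89.0 CPM in ST-m1 and 142 against 80.5 CPM in ST-m2. All 3 class values lay above all 3 values of the other cells, and the log2 fold change was 0.90 (SE 0.09, edgeR adjusted p = 3.19e-09). Nlrc5 had 41.8 against 23.2, 53.3 against 25.4 and 37.7 against 19.8 CPM in the same libraries. Its class values also lay above all others, with a log2 fold change of 0.98 (SE 0.19, edgeR adjusted p = 0.000522). Tap2 had 105 against 97.0, 135 against 118 and 167 against 129.9 CPM. The groups overlapped for Tap2 (0.23, SE 0.09, edgeR adjusted p = 0.240), although each library was higher in its interferon-gene-rich cells. Tapbp had 127 against 89.9, 126 against 86.3 and 108 against 100.8 CPM, with no overlap, and was called with a log2 fold change of 0.41 (SE 0.10, edgeR adjusted p = 0.0116). Without 1 library, LT-m2 or ST-m1, Tapbp did not pass (edgeR adjusted p = 0.132 and 0.437), and without ST-m1 neither did Nlrc5 (0.0565).

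The heavy chains and B2m rose less, from higher levels. H2-T23 had 454 against 351 CPM in LT-m2, 436 against 287 CPM in ST-m1 and 454 against 319 CPM in ST-m2. The class values did not overlap the others (log2 fold change 0.51, SE 0.06, edgeR adjusted p = 5.28e-07). B2m had 2226 against 1932, 2488 against 1996 and 2116 against 1830 CPM. It too did not overlap (0.25, SE 0.03, edgeR adjusted p = 7.09e-07). H2-K1 had 2586 against 2209, 2075 against 1943 and 2572 against 2238 CPM, and H2-D1 had 1761 against 1525, 1435 against 1262 and 1638 against 1465 CPM. For these 2 the groups overlapped, as libraries differed by more than classes, and each library was higher in its interferon-gene-rich cells. H2-K1 had a log2 fold change of 0.18 (SE 0.03, edgeR adjusted p = 0.000215) and H2-D1 of 0.19 (SE 0.04, edgeR adjusted p = 0.000531).

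The immunoproteasome subunits rose by a similar amount. Psmb8 had 494 against 428, 507 against 406 and 610.1 against 488 CPM (log2 fold change 0.29, SE 0.06, edgeR adjusted p = 0.000815). Psmb9 had 284 against 224, 322 against 252 and 291 against 267 CPM (0.28, SE 0.07, edgeR adjusted p = 0.0203). For both genes all class values lay above all values of the other cells. Psmb9 did not pass without LT-m2 or ST-m1 (edgeR adjusted p = 0.259 and 0.287). The constitutive catalytic subunits Psmb5 and Psmb6, which Psmb8 and Psmb9 replace, and Psmb7, which Psmb10 replaces, had log2 fold changes of 0.00, −0.04 and −0.06, and none passed.

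**Figure D4:**
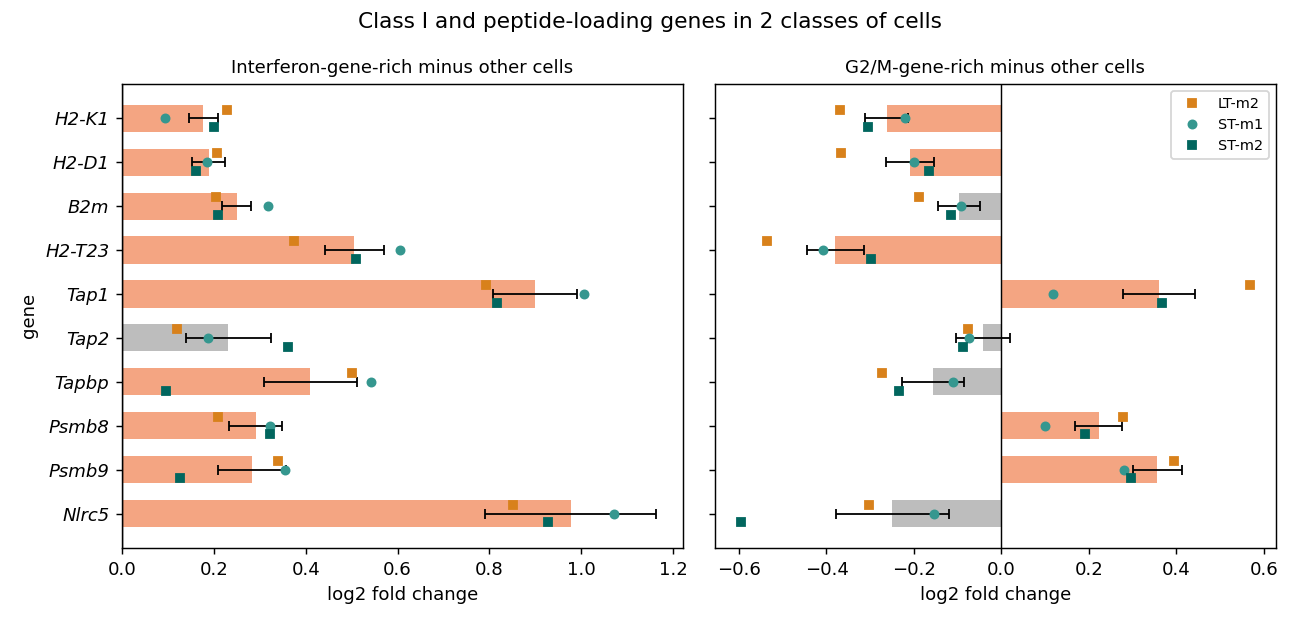
Log2 fold change of each of the 10 genes in interferon-gene-rich cells minus other cells (left) and in G2/M-gene-rich cells minus other cells (right). Bars are the edgeR estimates with their SE, orange where the adjusted p is under 0.05 and grey where it is not, and points are the log2 CPM ratios of the 3 single libraries. All points lie above 0 at the left, while at the right Tap1, Psmb8 and Psmb9 lie above 0 and the other 7 below.

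Counted per cell, the changes of the abundant members were small. Interferon-gene-rich cells held fewer UMIs in all (medians of 10210 against 10530, 9250 against 9945 and 7210 against 7567). A cell of the class had 26.4 UMIs of H2-K1 against 24.9 in other cells of LT-m2, 19.8 against 20.8 in ST-m1 and 18.6 against 18.1 in ST-m2. H2-K1 was thus not higher per cell in all 3 libraries, unlike Tap1, whose ratio per cell was 1.57, 1.79 and 1.58. Tapbp (0.958) and Psmb9 (0.979) also had a ratio under 1 in ST-m2, and Tap2 had 0.982 in LT-m2. The ratios of H2-D1, B2m, H2-T23, Psmb8 and Nlrc5 were above 1 in each library. Interferon-gene-rich cells also held fewer G2/M-gene-rich cells, 1.85%, 3.85% and 3.90%, against 8.98%, 9.80% and 8.12% of the others. With G2/M-gene-rich cells left out, a check added after the values were seen, 8 of the 10 stayed past the threshold and Tapbp had an edgeR adjusted p of 0.0526. Neutrophil-lineage markers summed to 349, 1673 and 447 CPM in the class against 509, 1041 and 2389 CPM in the others, in no common direction. With cells of other types left out, 9 members passed. Tap1 was past the threshold in all 15 settings tried, B2m and H2-T23 in 14, Tapbp in 8 and Psmb9 in 6. DESeq2 called 7, without Tapbp (DESeq2 adjusted p = 0.185) and Psmb9 (0.0678). A fit without the library block left 1 member (Tap1) and sums of thinned counts left 3 (Tap1, B2m and H2-T23).

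Around the 10 genes, the change in interferon-gene-rich cells was uneven, beside 1.43% of all genes called higher and 1.66% lower. Of 12 other class I and class I-like genes, H2-T22 (0.39, SE 0.09, edgeR adjusted p = 0.00307) and H2-Q6 (0.30, SE 0.08, edgeR adjusted p = 0.0178) were higher, H2-Q4 was near the threshold (0.24, edgeR adjusted p = 0.0649) and H2-Q7 had 0.09. Some 3′ sequence of H2-K1 is shared with H2-Q6 and H2-Q7. Of 21 other loading and peptide-supply genes none passed by edgeR. The nearest was Psme1, a subunit of the proteasome activator PA28 (0.21, edgeR adjusted p = 0.0507), and the third immunoproteasome subunit Psmb10 had 0.23 (edgeR adjusted p = 0.181). The endoplasmic reticulum chaperones of the loading complex, Calr (−0.10), Canx (−0.14) and Pdia3 (−0.07), did not pass. Of 27 class I regulators 4 were higher, Stat2 (1.79, SE 0.16), Irf9 (1.16, SE 0.09) and Irf1 (0.53, SE 0.10) among them. Ezh2, the Polycomb methyltransferase, was lower (−0.80, SE 0.14, edgeR adjusted p = 0.000155). The RFX subunits Rfx5 (0.43), Rfxank (0.11) and Rfxap (−0.09) did not pass. Of 36 other interferon-responsive genes 32 were higher, Iigp1 (2.43), Igtp (2.06), Ly6a (1.19) and Ifitm3 (0.84) among them, and none was lower. Clec2d was higher too (0.54, SE 0.07).

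The second class was taken from 52 G2 and M phase genes, in the same way, with a limit of 12 thinned UMIs. It held 101 of 1168 cells in LT-m2 (8.65%), 249 of 2603 in ST-m1 (9.57%) and 133 of 1678 in ST-m2 (7.93%). The range is again a cut on a score, with 32, 52 and 45 cells 1 UMI under it. Of 11857 genes 34.8% were called, 19.2% higher and 15.6% lower. Of the 10 members 3 were higher (Psmb9, Tap1 and Psmb8) and 3 lower (H2-T23, H2-K1 and H2-D1), while B2m, Tap2, Tapbp and Nlrc5 did not pass. The 6 of 10 stand beside this background of 34.8% and are read against it.

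The heavy chains were a smaller share of the RNA of G2/M-gene-rich cells. H2-T23 had 256 against 371 CPM in LT-m2, 228 against 303 CPM in ST-m1 and 270.0 against 332 CPM in ST-m2 (log2 fold change −0.38, SE 0.06, edgeR adjusted p = 0.000694). All class values lay below all others. H2-K1 had 1777 against 2296, 1707 against 1989 and 1867 against 2305 CPM (−0.26, SE 0.05, edgeR adjusted p = 0.00123), again with no overlap. H2-D1 had 1229 against 1584, 1124 against 1293 and 1330 against 1491 CPM (−0.21, SE 0.06, edgeR adjusted p = 0.0114), where ST-m2 in the class lay above the other cells of ST-m1. Without ST-m1, H2-D1 did not pass (edgeR adjusted p = 0.0640). B2m had 1736 against 1978, 1906 against 2032 and 1716 against 1859 CPM (−0.10, SE 0.05, edgeR adjusted p = 0.132).

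Psmb9, Tap1 and Psmb8 were higher in G2/M-gene-rich cells, while Tap2, the other transporter subunit, had a log2 fold change of −0.04 and did not pass. Psmb9 had 285 against 217 CPM in LT-m2, 299.5 against 247 CPM in ST-m1 and 320 against 260.4 CPM in ST-m2, with no overlap (log2 fold change 0.36, SE 0.06, edgeR adjusted p = 0.000361). Tap1 had 122 against 82.1, 98.9 against 91.1 and 104 against 80.3 CPM, also with no overlap (0.36, SE 0.08, edgeR adjusted p = 0.00507). Psmb8 had 507 against 418, 434 against 405 and 554 against 485 CPM (0.22, SE 0.05, edgeR adjusted p = 0.00726), higher in each library but with overlap between libraries. Without ST-m2, Psmb8 did not pass (edgeR adjusted p = 0.0562). The 3 constitutive subunits rose too, Psmb5 by 0.34, Psmb6 by 0.30 and Psmb7 by 0.44 on the log2 scale.

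Per cell, every one of the 10 had more UMIs in G2/M-gene-rich cells in each library, and these cells held more UMIs in all (medians of 17940 against 10260, 15390 against 9708 and 11600 against 7424). The ratio per cell was 1.31, 1.36 and 1.29 for H2-K1 and 2.22, 1.93 and 1.95 for Psmb9. The lower values above are therefore of shares of a cell's RNA. In this class 9 of 21 other loading genes were higher, among them the chaperones Calr (0.52), Hspa5 (0.50), Pdia3 (0.49) and Canx (0.32) and the activator subunit Psme2 (0.29), and Lnpep was lower (−0.37). Of 12 other class I and class I-like genes 8 were lower, among them Cd1d1 (−0.78), H2-Q4 (−0.30) and H2-Q6 (−0.25), and none was higher. Of 26 regulators 5 were higher, Ezh2 (1.83) and Eed (0.57) of the Polycomb complex among them. Another 8 were lower, Irf9 (−0.57), Irf1 (−0.35) and Rfx5 (−0.67) among them. Over all genes 19.2% were called higher and 15.6% lower in this class, so the 5 higher regulators are near the share of all genes. No list was tested against these shares.

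Markers of other blood cells moved with the G2/M class, some in all 3 libraries. The 10 neutrophil-lineage markers summed to 225, 3048 and 5984 CPM in the class against 547, 731 and 1805 CPM in the other cells of LT-m2, ST-m1 and ST-m2. Of these 10 markers, 4, 1 and 0 were at 0 in the class. Macrophage and monocyte markers summed to 33.2, 116 and 179 CPM against 11.2, 17.7 and 22.1 CPM, higher in the class in each library. T and NK cell markers were higher too, at 74.2, 137 and 181 CPM against 29.9, 84.4 and 94.0 CPM. Of these 8 markers, 6 were at 0 in the class in each library. Dendritic cell markers were lower in the class, at 110, 146 and 91.2 CPM against 178, 180 and 152 CPM. Sums of B cell, endothelial and stromal markers were also lower in the class in each library. Erythroid markers summed to 1029, 1193 and 2443 CPM against 966, 1018 and 970 CPM. With cells of other types left out, the same number of members passed, 3 higher and 3 lower. The part of such cells in the remaining differences was not tested.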

How the data were processed

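Each library came as 1 deposited matrix of UMI counts, not normalized. The authors made these counts with Cell Ranger 3.1.0 on mm10, per the submitters' processing notes, and the matrices name software version 3.0.2, per the file headers. The sources used here do not give how barcodes were selected. The members, gene lists, markers and score genes were chosen with earlier results of these data known.

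Counts of kept cells were summed per library, or per library and class, and tested with edgeR 4.0.16 (quasi-likelihood test, TMM, filterByExpr, Benjamini-Hochberg threshold 0.05, log2 fold change first-named minus second, SE from the F statistic). DESeq2 1.42.0 was the alternative. On simulated data, 100 genes were shifted by a log2 fold change of 1. The gate test found 90% of them with 10 false calls among 12474 genes. The interferon class test found 97% with 13 among 11702, and the G2/M class test 100% with 15 among 11751. Shifted genes were drawn from those above a CPM minimum, and counts from the dispersions that edgeR had fitted. No shift smaller than 1 was simulated. These rates therefore do not give the power for the smaller member changes of the reported fits. Mouse numbers pair the libraries, since both gates came from each animal; nothing in the labels says that libraries are separate beyond this, and p-values rest on 2 to 3 libraries a group.

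Thinning drew 4000 UMIs per cell without replacement. Score genes were left out of the calls of their class. Classes took the lowest limit that kept at most 5% (interferon) or 10% (G2/M) of cells. Cells with 3 or more markers of another type (1, 49, 144 and 149 of the libraries' kept cells) were left out in one alternative. Doublets were not removed, and no clustering was done. Named genes were the 10 members, and from each other list up to 5 called genes with a mean of 5 CPM or more, by smallest p; other list genes were named after their values were seen. For likeness, the 10 genes with the highest mean r among genes with a mean of at least 0.05 thinned UMIs per cell were named. Intervals and floors cover counting error only. Sums of all barcodes of LT-m1 combined with another setting, and classes outside the other class, were added after the data were seen. Sequences came from RefSeq (GRCm38.p6), and no protein sequence was used. One further regulator is not reported here.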

Additional observations from a re-analysis of the deposited data

How the results depend on the processing

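The number of genes called between the gates was 851. It was 54 with DESeq2 and 856 with the mouse as a replicate block, and with all barcodes of LT-m1 and the replicate block it was 1477. Leaving out 1 library gave 1 to 967, with 1 without LT-m2. No member passed in any of these 15 settings, so directions of members between gates are not settled. Log2 fold changes that took the other sign were as follows. With all barcodes of LT-m1 (alone, with the replicate block, without LT-m2, with DESeq2), H2-K1 was 0.105, 0.11, 0.122 and 0.101, H2-D1 0.179, 0.184, 0.195 and 0.175, B2m 0.076, 0.076, 0.13 and 0.072, Tap1 0.108, 0.106, 0.206 and 0.103, and Psmb8 0.011, 0.017, 0.085 and 0.008. Without LT-m1, H2-K1 was 0.078, H2-D1 0.154 and B2m 0.011. Without ST-m2, H2-K1 was 0.016 and H2-D1 0.041, and without ST-m1, H2-T23 was −0.028. Without LT-m2, H2-T23 was −0.224 and Tap2 0.123. With 1 library left out, the ranges were −0.356 to 0.078 for H2-K1, −0.443 to 0.154 for H2-D1, −0.37 to 0.011 for B2m and −0.224 to 0.198 for H2-T23. They were −0.366 to 0.123 for Tap2, −1.85 to −0.207 for Psmb9, −1.13 to −0.008 for Tap1 and −1.24 to −0.047 for Tapbp. Psmb8 ran from −0.603 to −0.075 and Nlrc5 from 0.014 to 1.44.

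In the interferon class, 366 genes were called in the reported setting, against 189 with DESeq2, 65 without the library block, 196 outside the G2/M class, 207 with at most 2% of cells, 186 with a class by Ifit1 and Isg15 only and 123 with thinned sums. Leaving out 1 library gave 234 to 335. Members called were 9, against 7 with DESeq2, 1 without the library block and 3 with thinned sums, and 6 to 9 with 1 library left out. In the G2/M class, 4124 genes were called, against 2342 with DESeq2, 1867 without the block and 1899 with thinned sums, and 3029 to 4088 with 1 library left out. Members called were 6, against 1 without the block and 5 to 6 with 1 library left out. Tap2, which did not pass, changed sign to 0.011 without cells of other types and 0.129 with thinned sums. The mean r of the member sum with the interferon sum was 0.183, and 0.125 at 2000 UMIs. The cause of these differences was not tested, apart from fewer cells, libraries or counts where the setting removes them. Depth limits LT-m1 most, where 5 UMIs carry Tap1 and Tapbp.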
